A study of Mus musculus with 2 samples.

Results

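The genes described here are 9 leukocyte adhesion genes measured by single-cell RNA sequencing (scRNA-seq) of mouse blood: Selplg, Itgam, Itgb2, Itgal, Itga4, Itgb1, Cd44, Pecam1 and Icam1. They were chosen by name for their role, with earlier results of these data known. They are 9 of the 32285 genes in the deposited count matrices, where all 9 were found by symbol. The 2 libraries each held blood cells enriched for neutrophils from 3 pooled 7-month-old female mice, 1 library from wild-type (WT) mice and 1 from APP/PS1 mice, a transgenic model of Alzheimer's disease. The labels name no treatment. The promoters of the transgenes and the background of the line are not given in the sources used here. With 1 library per genotype there is no replicate error and no test: the 95% intervals given cover counting error only, not the spread between mice, and genotype and library cannot be told apart.

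Leukocytes leave the blood in steps. Rolling on the vessel wall depends on selectins and their ligands, firm adhesion and crawling on integrins that bind immunoglobulin-type ligands on endothelium, and passage between endothelial cells on homophilic contacts such as those of Pecam1. An integrin is a pair of 1 alpha and 1 beta subunit, held in a bent inactive form until talin and kindlin bind the beta tail, so the amount of its mRNA says nothing of its activity.

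The 9 genes fall into these roles. Selplg encodes PSGL-1, the mucin that carries the main selectin ligand of neutrophils, and Cd44 a hyaluronan receptor that can also present E-selectin ligands. Itgam (CD11b) and Itgal (CD11a) encode alpha subunits that pair with Itgb2 (CD18) to form Mac-1 and LFA-1. Itga4 and Itgb1 encode the subunits of VLA-4, the receptor for VCAM-1 and fibronectin. Pecam1 encodes a junctional receptor, and Icam1 the endothelial ligand of Mac-1 and LFA-1, which leukocytes also make.

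In mm10 with GENCODE M21, Selplg lies at chr5:113818536-113832644, Itgb2 at chr10:77530252-77565708, Itga4 at chr2:79255426-79333123, Itgb1 at chr8:128685654-128733200, Cd44 at chr2:102811141-102901665, Pecam1 at chr11:106654217-106750628 and Icam1 at chr9:21015985-21028817. Itgal at chr7:127296260-127335138 lies 728.0 kb before Itgam at chr7:128062640-128118491 on the same strand. Itgam is followed after 11.1 kb by Itgax (CD11c) and then after another 3.72 kb by Itgad (CD11d), the other two alpha subunits that pair with Itgb2. The 4 alpha subunit genes of the beta2 integrins are thus all on chromosome 7. The counts are 3′ UMI counts per gene, so a value says nothing of isoforms such as the variant exons of Cd44.

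The RefSeq promoter table (GRCm38.p6) held 5 of the 9 genes, Itgam, Itga4, Itgb1, Cd44 and Icam1. Those of Itgam and Icam1 are shown because Itgam was the only member past the limit upward in immature neutrophils and Icam1 the one that differed most between the Retnlg-high and Retnlg-low neutrophils and, within neutrophils, between libraries. Each is the 250 bases before the annotated start on the plus strand, 5′ to 3′: chr7:128062390-128062639 for Itgam and chr9:21015690-21015939 for Icam1. Capitals mark, in Itgam, the letters GAGGAA or their reverse complement TTCCTC, the core letters of sites that the myeloid factor PU.1 is known to bind. In Icam1 they mark the letters GGAAATTCC, of the kappaB type.
Itgam: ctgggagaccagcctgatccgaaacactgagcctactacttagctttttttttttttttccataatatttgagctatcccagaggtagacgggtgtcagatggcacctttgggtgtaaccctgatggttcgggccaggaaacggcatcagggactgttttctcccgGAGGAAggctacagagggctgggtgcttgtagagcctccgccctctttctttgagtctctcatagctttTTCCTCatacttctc
Icam1: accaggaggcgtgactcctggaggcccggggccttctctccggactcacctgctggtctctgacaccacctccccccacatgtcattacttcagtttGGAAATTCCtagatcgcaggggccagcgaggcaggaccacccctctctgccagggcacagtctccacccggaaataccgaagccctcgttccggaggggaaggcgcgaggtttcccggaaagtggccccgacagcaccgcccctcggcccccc
The Itgam matches begin 84 and 15 bases before the start, 1 on each strand, and the Icam1 match 153 bases before it. Both strands were searched. Of 32851 promoters cut to the same 250 bases, 23.3% held GAGGAA and 0.286% held GGAAATTCC. Of the other members in the table, Cd44 held GAGGAA at 2 places and Itgb1 at 1, and none but Icam1 held GGAAATTCC. A match is a run of letters and was not tested as a binding site.

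After filtering, 14564 WT cells and 15208 APP/PS1 cells were kept, with medians of 3274.5 and 3085.5 unique molecular identifiers (UMIs, 1 per captured mRNA molecule) per cell. The libraries shared 83 barcodes, 0.485% and 0.470% of their cells. Cells were clustered without the 9 genes and without the wider adhesion list below, and clusters were named from marker genes. Each name thus means a cell that is like that type by its markers, and the suffix is left out in the text. Although the samples are labelled neutrophil, only part of the cells were: 5939 WT and 7375 APP/PS1 cells were neutrophils, and 1632 and 2196 were neutrophils that also held platelet genes such as Clec1b, Alox12, Ppbp and Itga2b, kept as a class of their own. The rest were monocytes, lymphocytes, dendritic cells, basophils and erythroid cells, with 696 and 601 cells left unnamed. Levels (CPM) are the UMIs of a gene divided by all UMIs of the class and scaled to the same total in every class. They are compared for 1 gene across classes, not between genes.

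Selplg was highest in neutrophils. It stood at 767 CPM (754 to 780) in WT and 771 CPM (759 to 782) in APP/PS1 neutrophils, and at 792 and 782 CPM in the neutrophils with platelet genes, and the counting intervals of the 2 classes overlapped. NK cells held 511 and 541 CPM, CD8 T cells 419 and 489 CPM, and gamma-delta T cells 519 and 582 CPM. The neutrophil level was 2.77 times that of classical monocytes in WT and 2.87 times in APP/PS1, and 3.29 and 3.24 times that of nonclassical monocytes. B cells were lowest, at 108 and 92.4 CPM, so the neutrophil level was 7.11 and 8.34 times higher.

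Cd44 followed the same order at its top, with 1383 (WT) and 1304 CPM (APP/PS1) in neutrophils. Both kinds of monocytes came next, at 806 and 682 CPM in classical and 807 and 777 CPM in nonclassical monocytes. In NK cells, B cells and CD8 T cells Cd44 was between 193 and 274 CPM in either library. The neutrophil level was 5.66 and 4.76 times that of NK cells, and 5.29 and 6.77 times that of CD8 T cells.

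Itgam, the myeloid alpha subunit, was the third gene highest in neutrophils, at 486 CPM (475 to 496) in WT and 501 CPM (491 to 510) in APP/PS1. Nonclassical monocytes held 382 and 365 CPM and NK cells 366 and 369 CPM, and these did not separate from each other. Classical monocytes held 308 and 306 CPM. Lymphocytes other than NK cells were far lower, between 51.2 and 62.8 CPM in B cells, CD8 T cells and gamma-delta T cells. Itgam UMIs were found in 68.2% of WT and 70.0% of APP/PS1 neutrophils, at medians of 2530 and 2636 UMIs per cell, and in 17.8% and 18.6% of B cells, at medians of 5001 and 5875 UMIs. At 1000 UMIs drawn from each cell the shares were 37.5% and 38.0% in neutrophils and 2.97% and 4.89% in B cells. The Itgam level in B cells was 51.2 CPM (WT) and 55.8 CPM (APP/PS1). The summed level of all 12 neutrophil markers in B cells was 13268 CPM (WT) and 6693 CPM (APP/PS1), against 191296 and 162282 CPM in neutrophils, so neutrophil transcripts were present in cells of other types. Their part in the low Itgam values of lymphocytes was not tested.

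Itgal had another order. Nonclassical monocytes stood alone at the top with 1229 CPM (1208 to 1250) in WT and 1288 CPM (1261 to 1316) in APP/PS1. NK cells followed at 632 and 601 CPM. Neutrophils held 407 and 429 CPM and CD8 T cells 378 and 394 CPM, which did not separate beyond counting error in both libraries. Itgal in nonclassical monocytes was 3.47 times its level in classical monocytes in WT and 3.54 times in APP/PS1.

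Itgb2, the shared beta subunit, was also highest in nonclassical monocytes, with 686 and 769 CPM. NK cells held 589 and 523 CPM, neutrophils 449 and 473 CPM, classical monocytes 335 and 342 CPM, and B cells 108 and 80.4 CPM. Every neighbouring pair among the first 3 of these separated by counting error in both libraries.

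The UMIs of the 4 alpha subunit genes were then taken as shares of their sum, which compares the same 4 genes across classes and is not a ratio of proteins. In neutrophils Itgam made 52.8% (52.0 to 53.6) of these UMIs in WT and 52.3% (51.6 to 52.9) in APP/PS1, Itgal 44.2% and 44.8%, and Itgax 2.97% and 2.93%. Nonclassical monocytes were the reverse, with Itgal at 70.2% and 72.6% and Itgam at 21.8% and 20.5%. Classical monocytes lay between them, with Itgam at 45.6% and 44.9%. In CD8 T cells Itgal made 81.6% and 83.4%. Itgax, known as a dendritic cell marker, was largest in NK cells among the classes plotted, at 10.7% and 8.53%, and reached 6.69% and 6.98% in dendritic cells. Itgad made 1.71% (0.821 to 3.12) and 1.02% (0.443 to 2.01) in CD8 T cells, from 10 and 8 UMIs.

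**Figure D1:**
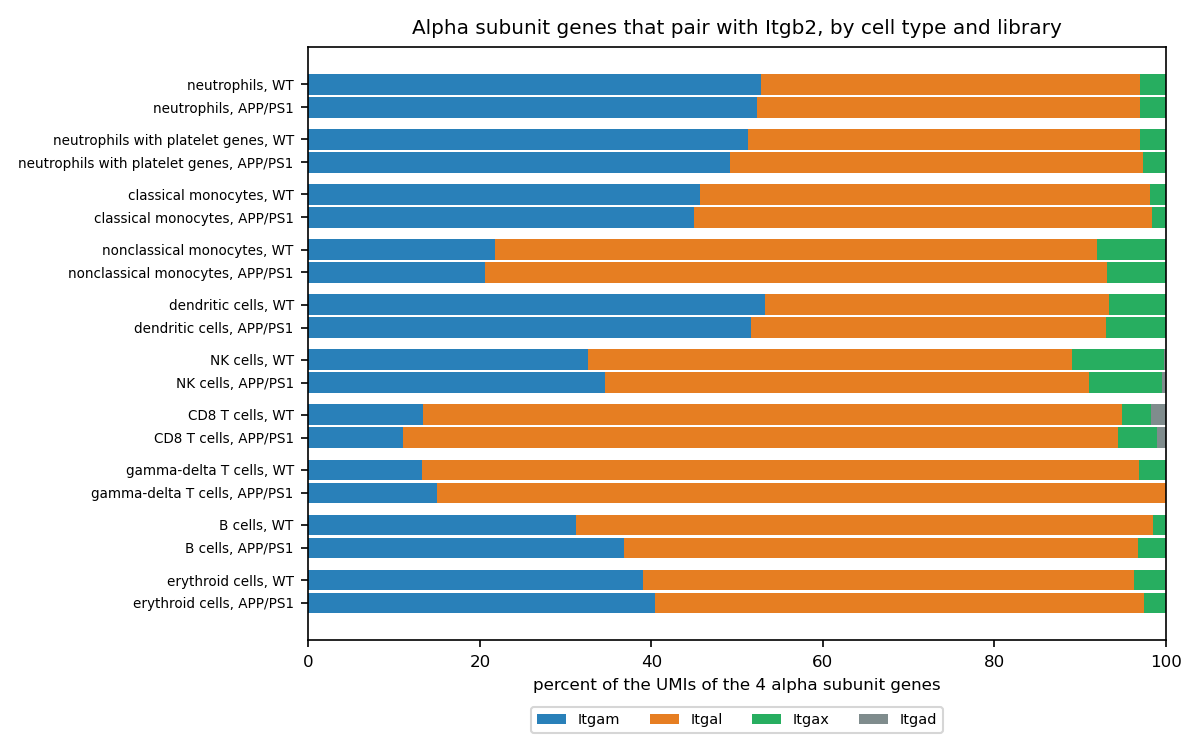
Percent of the summed UMIs of Itgam, Itgal, Itgax and Itgad that each gene makes (x axis), for 10 cell classes with at least 50 cells in each library and for both libraries (bars, y axis). Itgam makes 52.8% and 52.3% of the bar in neutrophils and 21.8% and 20.5% in nonclassical monocytes, where Itgal makes 70.2% and 72.6%. Between libraries Itgal in nonclassical monocytes differs by more than its counting intervals.

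Itga4, the alpha4 subunit, was highest in nonclassical monocytes, at 940 and 838 CPM, and in NK cells, at 858 and 851 CPM, which did not separate in both libraries. CD8 T cells held 616 and 781 CPM. Classical monocytes held 467 and 466 CPM, and neutrophils only 302 CPM (294 to 310) and 322 CPM (315 to 330), close to the 297 and 299 CPM of B cells. Itga4 in neutrophils was 0.321 times its level in nonclassical monocytes in WT and 0.385 times in APP/PS1.

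Its partner Itgb1 was lowest of all in neutrophils, at 41.2 CPM (38.2 to 44.3) in WT and 48.9 CPM (46.0 to 51.9) in APP/PS1. Nonclassical monocytes held 550 and 604 CPM, CD8 T cells 412 and 603 CPM, NK cells 409 and 479 CPM and classical monocytes 243 and 263 CPM. Neutrophils thus had 0.0748 and 0.0808 times the level of nonclassical monocytes. The neutrophils with platelet genes held 145 and 187 CPM, above the other neutrophils by far more than counting error, and their summed level of 9 platelet markers was 4141 and 5175 CPM against 765 and 942 CPM. Platelets are known to carry integrin alpha2beta1, and the part of platelet RNA in these values was not tested.

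Pecam1 and Icam1 gave few UMIs in neutrophils. Pecam1 stood at 7.02 and 7.08 CPM in neutrophils, 27.8 and 31.6 CPM in the neutrophils with platelet genes, and 119 and 66.7 CPM in nonclassical monocytes. In basophils it reached 108 and 152 CPM from 40 and 33 UMIs. B cells held 70.1 and 72.7 CPM and NK cells 48.0 and 53.1 CPM. Classical monocytes, at 12.3 and 11.3 CPM, were nearer to neutrophils than to nonclassical monocytes, which stood 9.66 times higher in WT and 5.90 times higher in APP/PS1.

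Icam1 was at 9.20 CPM (7.81 to 10.8) in WT neutrophils and at 14.0 CPM (12.5 to 15.6) in APP/PS1 neutrophils. NK cells were highest, at 55.1 and 61.4 CPM. Classical monocytes held 47.1 and 48.2 CPM, nonclassical monocytes 41.7 and 49.5 CPM and CD8 T cells 41.9 and 49.1 CPM. None of these separated from NK cells by counting error in both libraries. B cells held 18.3 and 19.1 CPM. The neutrophil level was 0.195 times that of classical monocytes in WT and 0.290 times in APP/PS1.

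**Figure D2:**
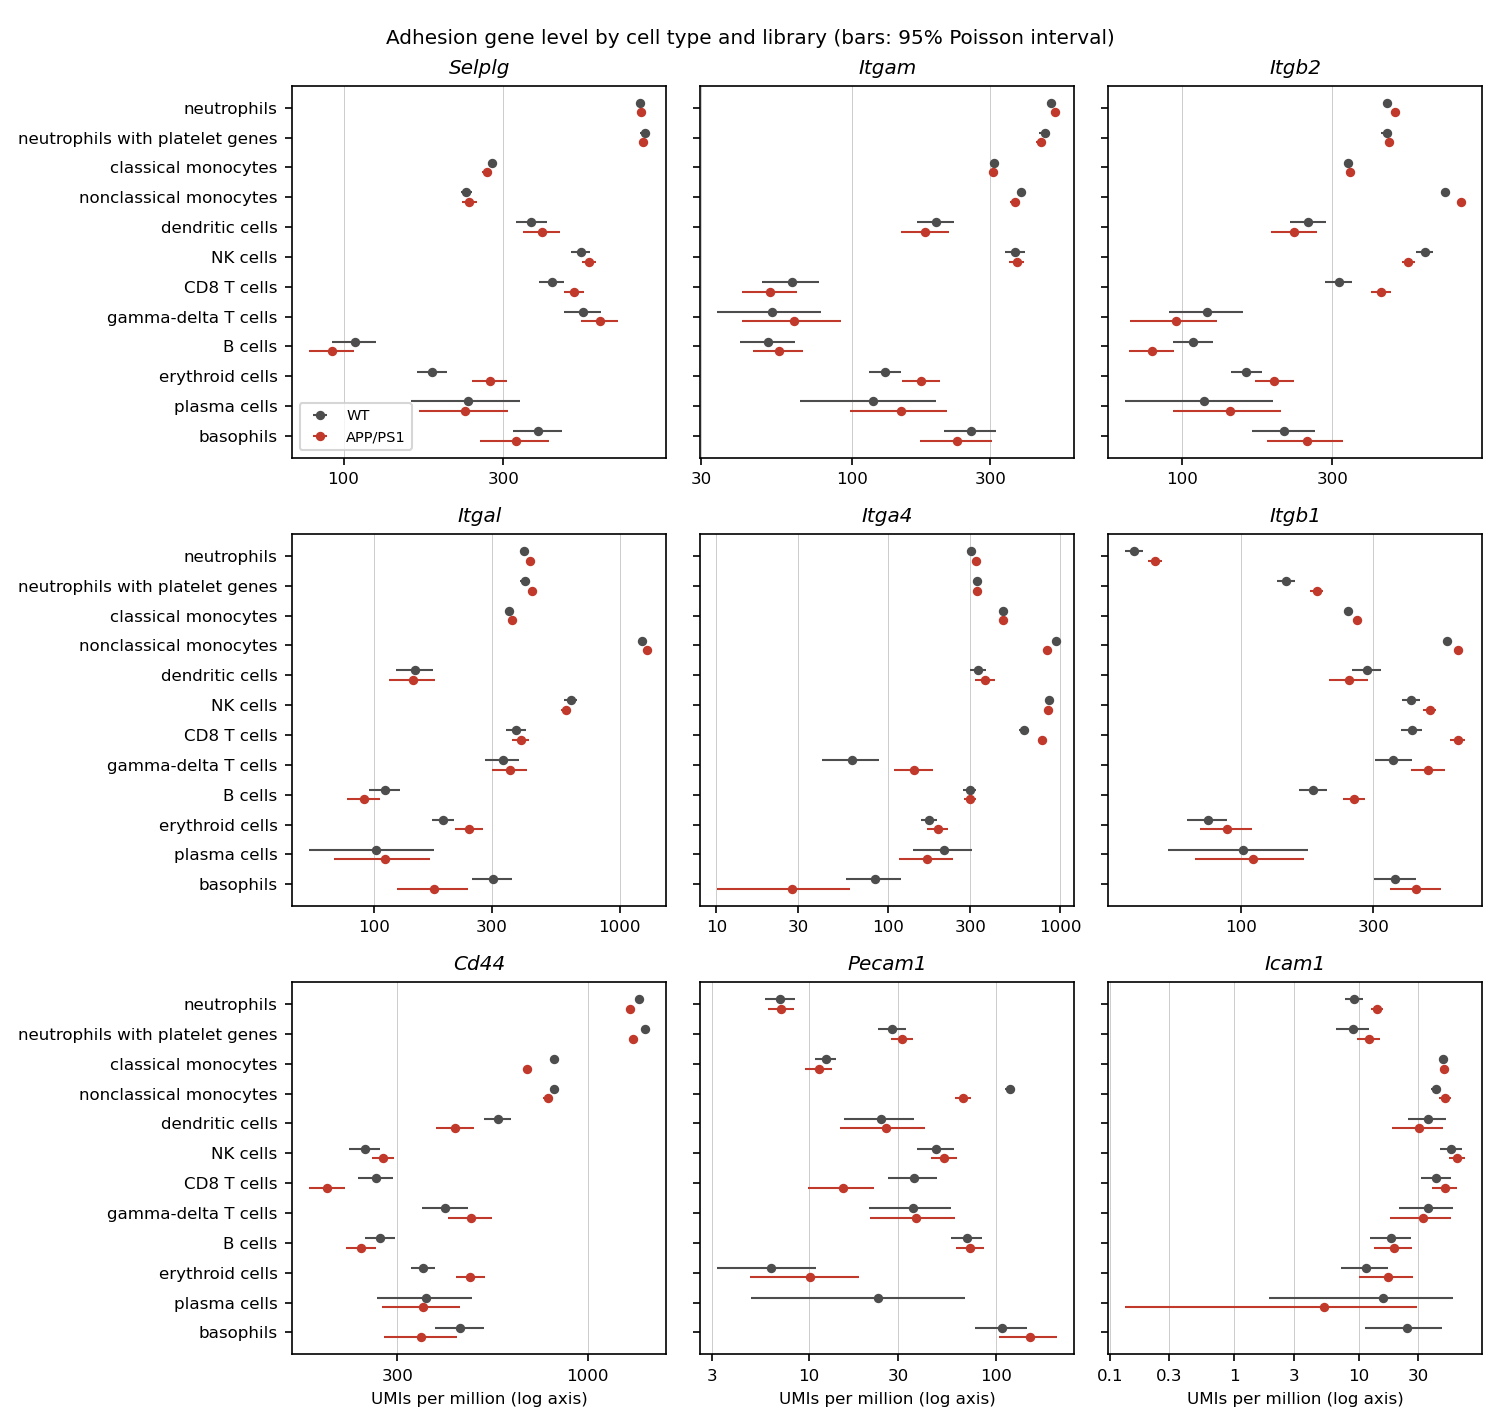
Level of each of the 9 genes in CPM (x axis, log scale, 1 panel per gene) for 12 cell classes (y axis) in the WT (grey) and APP/PS1 (red) libraries, with 95% Poisson intervals as bars and values of 0 not drawn. By the mean of the libraries, Selplg, Itgam and Cd44 peak in neutrophils, and Itgb2, Itgal, Itga4 and Itgb1 in nonclassical monocytes. In the APP/PS1 library alone Itga4 is higher in NK cells (851 CPM) than in nonclassical monocytes (838 CPM). Itgb1 is lowest in neutrophils without platelet genes.

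Of the 9 genes, then, Selplg, Itgam and Cd44 had their highest library mean in one of the neutrophil classes, Itgb2, Itgal, Itga4 and Itgb1 in nonclassical monocytes, Pecam1 in basophils, and Icam1 in NK cells. The basophil and plasma cell classes had under 50 cells in a library and were used for levels only. Over the 24 profiles of 12 classes in 2 libraries, which share depth and free RNA, the genes most like each member were sought among 8907 genes with at least 500 UMIs by Pearson r of log2(CPM + 1). These r are descriptions. Itgam was most like Fcer1g (r = 0.96), the common Fc receptor chain, and Tyrobp (r = 0.96), another signalling adaptor. Cd44 was most like Eif4ebp1 (r = 0.97), Selplg like Sema4a (r = 0.93), Itgb1 like Lrrc8c (r = 0.93) and Icam1 like Crybg1 (r = 0.95). Itgal was most like Rap1gap2 (r = 0.92), followed by Rap1b (r = 0.89), a small GTPase that activates integrins. Rap1b was also second for Itgb2 (r = 0.89), after Efhd2 (r = 0.90). Itga4 was most like Ggct (r = 0.86) and Pecam1 like Gclc (r = 0.86). The third for Itgam was Apobr (r = 0.94) and for Itgal Lcp2 (r = 0.88), an adaptor of T cell and integrin signalling. Among the members themselves Itgb2 and Itgal were the most alike pair (r = 0.82) and Itgb1 and Cd44 the most unlike (r = -0.41).

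Neutrophils were clustered again, with genes that differed by over 0.5 log2 between libraries left out of the features, and the members' levels were read in each subtype. Immature neutrophils, led by the secondary granule genes Camp, Ngp and Ltf, were 172 WT and 225 APP/PS1 cells. In them 8 of the 9 genes were past 0.5 log2 in the same direction in both libraries, 1 higher and 7 lower. The comparison was with all other neutrophils, which include those with platelet genes. Itgb1 and Pecam1 are set against neutrophils without platelet genes below, and neither was lower than these by 0.5 log2. Of all genes with at least 200 UMIs over both libraries in immature cells or in the other neutrophils, 38.8% were past that limit. Of all these genes 9.5% were higher and 29.3% lower. Itga4, Itgb1, Pecam1 and Icam1 reached that minimum only in the other neutrophils, where they were higher. The minimum thus lets in genes that are low in the small immature class, among the members as among all genes. Immature cells were deeper, with a median of 5614 UMIs against 2519 in the largest cluster, and with 1000 UMIs drawn from every cell 5 members were past it. Subtypes were defined by clustering these cells, so the values are descriptions.

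Itgam was the gene that was higher in immature cells, at 712 CPM (658 to 769) in WT and 837 CPM (790 to 886) in APP/PS1, which was 1.51 and 1.78 times the other neutrophils. Itgb2 was within the limit, at 497 and 529 CPM. Itgal was at 224 and 203 CPM, 0.539 and 0.459 times the others. The Itgam share of the alpha subunit UMIs was accordingly 75.8% (72.7 to 78.6) in WT and 80.1% (78.0 to 82.1) in APP/PS1, against 52.8% and 52.3% over all neutrophils without platelet genes.

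Selplg and Cd44 were both lower in immature cells, Selplg at 339 and 312 CPM and Cd44 at 786 and 669 CPM. Itga4 was furthest apart among the genes with over 100 UMIs, at 60.5 CPM (45.5 to 79.0) in WT and 68.1 CPM (55.1 to 83.1) in APP/PS1, or 0.191 and 0.202 times the others. Itgb1 was at 30.3 and 36.2 CPM and Pecam1 at 7.85 and 8.51 CPM. Neutrophils without platelet genes, immature cells included, held 41.2 and 48.9 CPM of Itgb1 and 7.02 and 7.08 CPM of Pecam1. Those with platelet genes held 145 and 187 CPM of Itgb1 and 27.8 and 31.6 CPM of Pecam1. Pecam1 in immature cells was thus not below the neutrophils without platelet genes. The part of the platelet-gene cells in these calls was not tested. Pecam1 and Icam1 rested on 19 and 5 UMIs over both libraries, and their intervals were wide: the Icam1 log2 ratio was -1.48 (-3.77 to 0.09) in WT and -3.31 (-6.36 to -1.45) in APP/PS1. At 1000 UMIs per cell Icam1 had no UMI in immature cells of at least 1 library.

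Of 47 other adhesion genes with enough UMIs in immature cells or in the other neutrophils, 4 were higher and 24 lower in immature cells in the same sense. Those higher were Cd177, a partner of Mac-1 on neutrophils (log2 ratio 4.04 in WT and 4.72 in APP/PS1), Ceacam1 (0.95 and 1.55), Spn (0.96 and 1.45), which encodes CD43, and Vcl (0.94 and 1.39), the adhesion plaque protein vinculin. Those lower included Itgax (-3.07 and -2.50), Jaml, a junctional adhesion receptor (-1.76 and -2.09), and the sialyltransferase genes St3gal4 and St3gal6. Cd177 is itself a marker of immature neutrophils here, and 1 library per genotype gives no replicate for any of these.

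The largest cluster, 10775 cells, carried no subtype name at the main resolution. A finer clustering of all neutrophils at a resolution of 0.4 was chosen after the data were seen. It gave Retnlg-high cells (2934 WT and 2718 APP/PS1 cells), with Stfa2, Stfa1 and Retnlg among their leading genes. Retnlg encodes a resistin-like secreted protein of neutrophils. Another cluster was called Retnlg-low (1457 and 2916 cells). It was named because Clec4n, Dusp2, Traf1, Ccl3 and Ccl4 were high as a set, not from the level of Retnlg itself. Its leading genes included Clec4n, Dusp2, Csf1, Ccl3 and Ccrl2. A further cluster had Rgs1 and Il2rg among its leading genes (851 and 538 cells, with a median of 5077 UMIs). Icam1 and Itga4 differed most between Retnlg-high and Retnlg-low cells. Icam1 was 4.79 CPM (3.39 to 6.57) in WT and 6.26 CPM (4.64 to 8.25) in APP/PS1 Retnlg-high cells, and 23.4 CPM (18.4 to 29.5) and 25.5 CPM (21.9 to 29.5) in Retnlg-low cells, or 4.90 and 4.07 times higher. Itga4 was 237 and 231 CPM in Retnlg-high and 474 and 442 CPM in Retnlg-low cells, a log2 ratio with intervals of 0.90 to 1.10 in WT and 0.85 to 1.02 in APP/PS1.

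Itgb1 was 1.88 and 1.84 times higher in Retnlg-low than in Retnlg-high cells, Itgal 1.34 and 1.36 times, and Cd44 1.32 and 1.28 times. Selplg, Itgam and Itgb2 differed by less, between 1.08 and 1.16 times. Pecam1 was 1.15 times higher in WT and 0.560 times in APP/PS1, the only member whose ratio differed in direction between libraries. The log2 interval in WT was -0.58 to 0.94, from 23 UMIs in Retnlg-low and 51 in Retnlg-high cells, and includes 0. In APP/PS1 it was -1.43 to -0.27, from 39 and 78 UMIs. Retnlg-low cells were shallower, with a median of 2248 UMIs against 2723, and the levels are scaled to total UMIs.

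In the finer clustering, set against all other neutrophils, which here include those with platelet genes, 4 members were past 0.5 log2 in Retnlg-high cells, all lower: Itga4, Itgb1, Pecam1 and Icam1. The background was 7.65% of genes in either direction and 7.53% lower. It covers genes with at least 200 UMIs over both libraries in the cluster or in the other neutrophils. Pecam1 and Icam1 in Retnlg-high cells reached that minimum only in the other neutrophils, where they were higher, as did Pecam1 in Retnlg-low cells. In Retnlg-low cells Itga4 and Icam1 were higher and Pecam1 lower, 3 of 9 against a background of 10.6%. Pecam1 was called lower in both clusters. It was at 6.42 (WT) and 9.76 CPM (APP/PS1) in Retnlg-high and 7.39 and 5.46 CPM in Retnlg-low cells. The finer cluster with platelet genes held 28.8 and 35.0 CPM, and its part in these calls was not tested. In the main clustering, 1 member, Pecam1, was past the limit in interferon-signature cells, led by Ifit3 and Ifit1, and lower there, against 4.96%. The other neutrophils again include those with platelet genes. Pecam1 was at 8.35 (WT) and 5.83 CPM (APP/PS1) in interferon-signature cells, from 31 and 24 UMIs. In the largest cluster it was at 6.38 and 7.24 CPM, so the libraries differed in direction there. In the same clustering 2 members were past the limit in the neutrophils with platelet genes, against 4.09%. These were Itgb1, 3.39 times higher in WT and 3.67 times in APP/PS1, and Pecam1, 3.52 and 4.12 times. In that class 8 of 47 other adhesion genes were higher, of which Itga2, Itga2b, Itga6, Itgb3, Itgb5 and Esam had log2 ratios between 2.15 and 3.19. Itga2b was one of the genes that led that cluster.

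**Figure D3:**
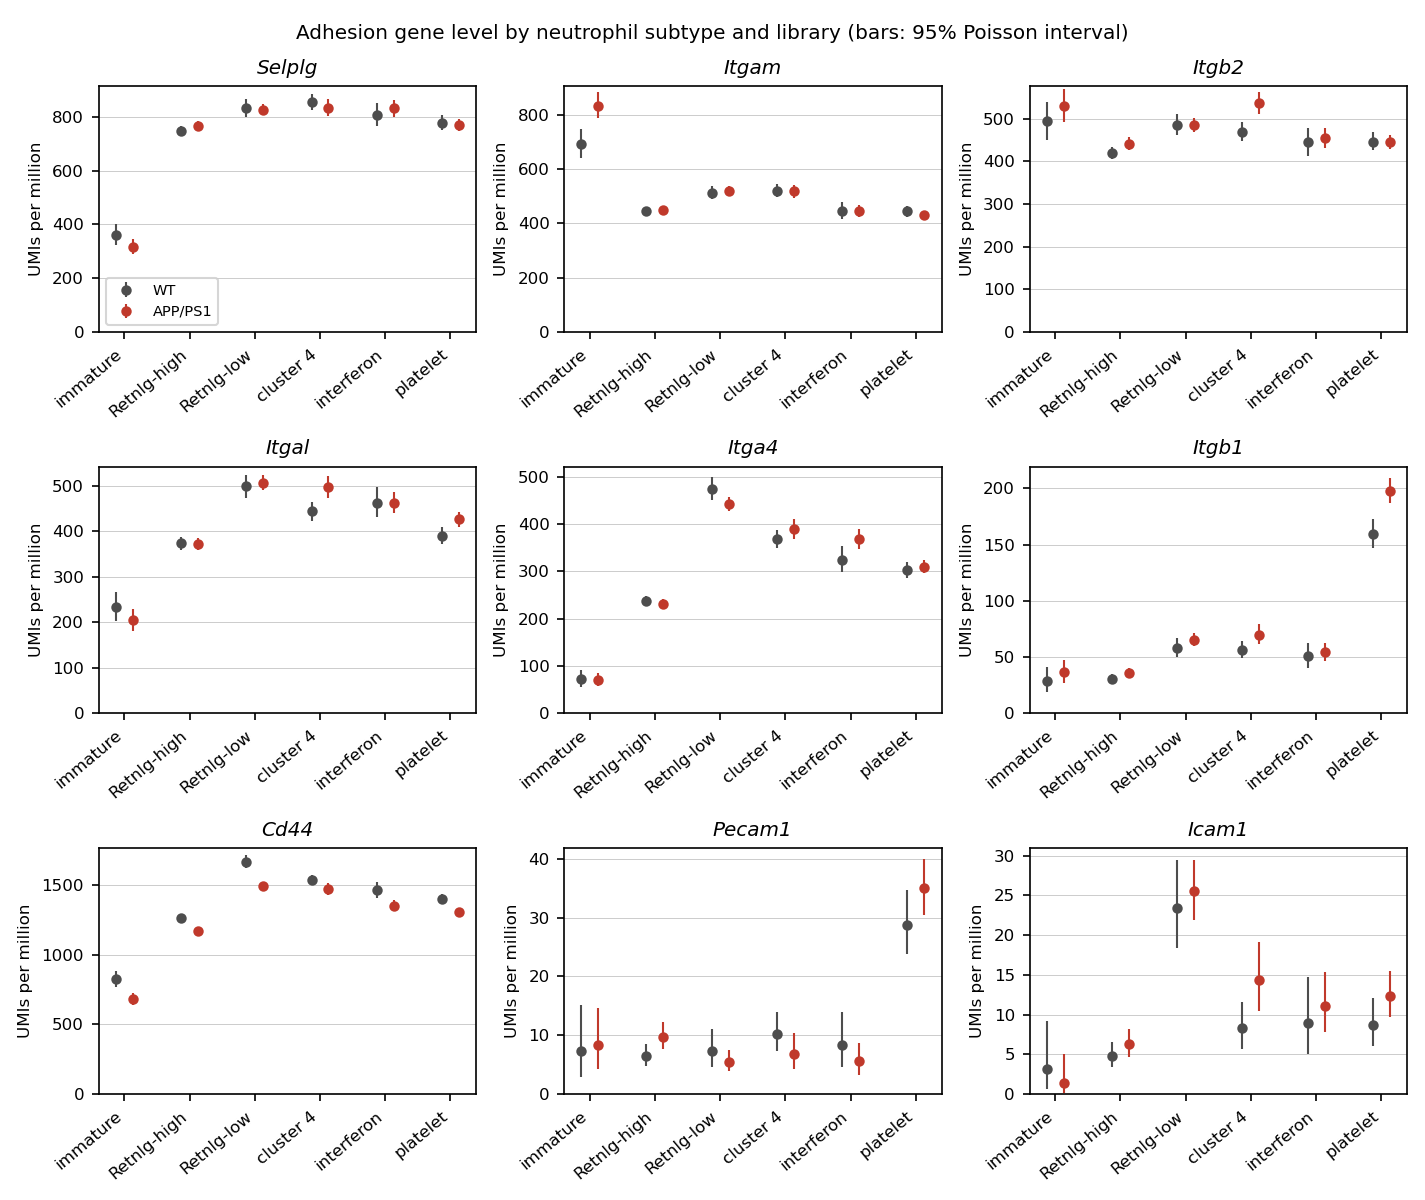
Level of each of the 9 genes in CPM (y axis, from 0, 1 panel per gene) in 6 neutrophil clusters at the finer resolution (x axis), in the WT (grey) and APP/PS1 (red) libraries with 95% Poisson intervals as bars. Itgam is highest and Selplg, Itgal, Itga4 and Cd44 are lowest in immature cells, Icam1 and Itga4 are highest in Retnlg-low cells, and Itgb1 and Pecam1 stand out in the cells with platelet genes.

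The comparison of the libraries asked whether circulating neutrophils of APP/PS1 mice differ in these genes. In neutrophils 1 of the 8 members that reached 200 UMIs in either library, Icam1, was past 0.5 log2 in either direction. The share was 5.29% over all 5537 genes that reached this minimum. Icam1 reached it only in the APP/PS1 library, where it was higher, and the share over all genes lets in such genes too. Pecam1 had fewer UMIs than that. The median log2 ratio, APP/PS1 over WT, was 0.07 over the members and 0.06 over all those genes.

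Icam1 had 156 UMIs in WT and 310 in APP/PS1 neutrophils, giving the 9.20 and 14.0 CPM above and a log2 ratio of 0.60 (0.32 to 0.89), or 1.52 times. In the main clustering the ratio was 0.68 (0.36 to 1.02) in the largest cluster, from 113 and 244 UMIs, and 0.52 (-0.09 to 1.16) in interferon-signature cells. Within the finer clusters it was 0.39 (-0.25 to 1.03) in Retnlg-high cells, 0.12 (-0.28 to 0.53) in Retnlg-low cells, 0.31 (-0.59 to 1.29) in interferon-signature cells, 0.51 (-0.09 to 1.14) in those with platelet genes and 0.79 (0.11 to 1.48) in the cluster with Rgs1 and Il2rg. Retnlg-low cells, which had the highest Icam1, made 19.2% of all neutrophils in WT and 30.4% in APP/PS1, and Retnlg-high cells 38.7% and 28.3%. With the clusters given equal proportions in both libraries, a comparison added after the data were seen, Icam1 had a log2 ratio of 0.32, and no member was past the limit.

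Of the others, Itgb1 had the largest ratio, 0.25 (0.11 to 0.39), from 698 and 1083 UMIs. Itga4 (0.09), Itgb2 (0.08), Itgal (0.07) and Itgam (0.04) had intervals above 0, beside a median of 0.06 over all genes, and under an alternative Itga4 and Itgam turned to the other side of 0. Cd44 was slightly lower, at -0.09 (-0.11 to -0.06), and Selplg was at 0.01 (-0.03 to 0.04). For Pecam1, at 0.01 (-0.34 to 0.37), no difference was detectable at this depth. The signs of both also turned under some alternatives. With equal proportions of the clusters Itga4 was at -0.01 and Itgb1 at 0.16. Within the finer clusters Itga4 was at -0.10 (-0.19 to -0.01) in Retnlg-low and 0.18 (0.03 to 0.33) in interferon-signature cells. Its intervals in the other finer clusters included 0.

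**Figure D4:**
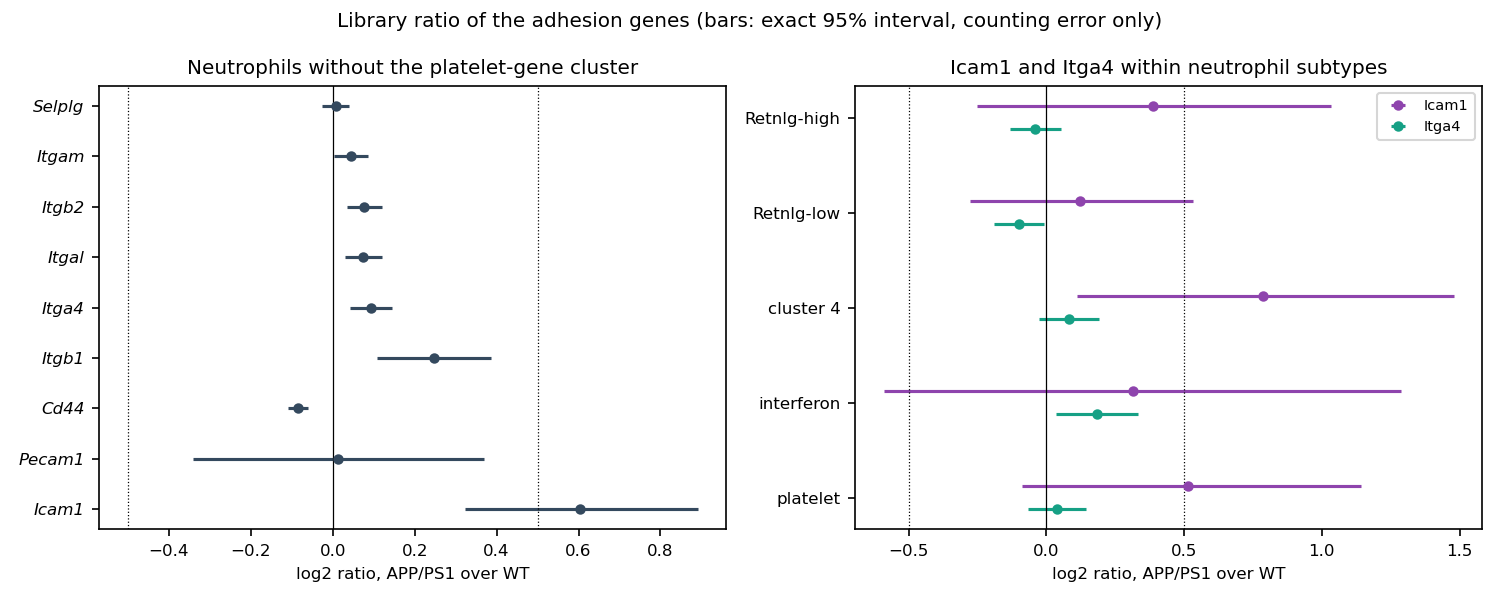
Left, log2 ratio of APP/PS1 over WT (x axis) for each of the 9 genes in neutrophils without the platelet-gene class; right, the same ratio for Icam1 and Itga4 within 5 neutrophil clusters. Bars are exact 95% intervals for counting error, and dotted lines mark 0.5 log2 in either direction. On the left, Icam1 alone lies past a dotted line. On the right the Icam1 intervals are wide and include 0 in all but the cluster with Rgs1 and Il2rg. The Itga4 interval lies below 0 in Retnlg-low and above 0 in interferon-signature cells.

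The other genes of the adhesion pathway came from a list of 57 genes, of which 43 had enough UMIs in neutrophils. Of these, 1 was past 0.5 log2 upward and 2 downward, with a median of -0.005. Among the other integrin subunits Itga6 was past it, at 0.67 (0.47 to 0.88), from 17.2 to 27.3 CPM, and Itgav was lowest at -0.12. Itga6 is a platelet integrin too, and in the neutrophils with platelet genes it stood at 157 and 196 CPM. Among the other adhesion receptors the range ran from Spn at -0.17 to Jaml at 0.28 (0.24 to 0.32). Among the genes that build selectin ligands it ran from B4galt1 at -0.08 to St3gal4 at 0.16.

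Of 14 genes of integrin activation with enough UMIs, Cyth1, which encodes cytohesin-1, a regulator of beta2 integrins, was lowest at -0.51 (-0.67 to -0.35) and Rap1a highest at 0.18. Tln1 (talin) was at 0.06 and Fermt3 (kindlin-3) at -0.03. Of 7 genes of shedding and membrane linkage Adam17, which encodes a membrane protease that sheds surface proteins, was lowest at -0.66 (-0.81 to -0.51), from 47.0 to 29.7 CPM, and Rdx (radixin) highest at 0.20. Adam17 was also lower in the neutrophils with platelet genes, at -0.76, while in classical monocytes it was at -0.03 (-0.14 to 0.09).

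In the neutrophils with platelet genes no member with at least 200 UMIs was past 0.5 log2 (background 4.72%). Itgb1 was at 0.36 (0.23 to 0.50), and the platelet markers were higher there too, as given above. In classical monocytes none was past it (3.07%), and Cd44 was at -0.24 (-0.28 to -0.20). In dendritic cells (6.38%), NK cells (2.09%), gamma-delta T cells (6.29%) and B cells (7.06%) none with enough UMIs was past it either. Below that minimum, Itga4 in gamma-delta T cells was at 1.21 (0.55 to 1.91), from 29 and 61 UMIs or 61.1 and 142 CPM.

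In nonclassical monocytes 1 of 9 members was past it, against 2.69% of all genes: Pecam1 had 1273 UMIs in WT and 428 in APP/PS1, and its 119 and 66.7 CPM gave a log2 ratio of -0.83 (-0.99 to -0.67), or 0.562 times. Their platelet markers summed to 492 and 499 CPM. Pecam1 in classical monocytes was at -0.12 (-0.43 to 0.18). In the same cells Itgb2 was at 0.17 (0.11 to 0.22) and Itga4 at -0.17 (-0.21 to -0.12).

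In CD8 T cells 1 of 6 members with enough UMIs was past the limit, against 6.42%: Itgb1, from 412 to 603 CPM, at 0.55 (0.40 to 0.71). Itga4 there was at 0.34 (0.21 to 0.47). Pecam1 was at -1.26 (-2.03 to -0.53) from 46 and 25 UMIs. In the same class the 9 NK cell markers summed to 4819 CPM in the WT library and 7071 CPM in the APP/PS1 library. Of these markers, Gzma, Prf1 and Nkg7 also led an unnamed cluster together with Cd8a and Cd8b1, so the sum is not particular to NK cells. The 8 classical monocyte markers summed to 829 and 1265 CPM. What either adds to these ratios was not tested. Itgb1 was within the limit with library sizes without abundant genes and with 1000 UMIs drawn from every cell. In erythroid cells 1 of 6 was past it, Selplg at 0.57 (0.33 to 0.80), against 19.4% of genes, and it was within the limit under both other library sizes, both other cell filters by percentile and with 1000 UMIs drawn from every cell. The median over the members in erythroid cells was 0.42, against 0.19 over all genes tested there, and their neutrophil markers summed to 34979 CPM (WT) and 42374 CPM (APP/PS1). The part of neutrophil RNA in these values was not tested.

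Outside the main neutrophil class, 56 of 81 pairs of member and class had enough UMIs, and 3 of them were past the limit. Over all genes in the same 9 classes, 888 of 22046 pairs, or 4.03%, were past it, so the share among members is near the background. Itgb1 was higher in APP/PS1 in 9 of 10 classes, with the interval above 0 in 8 and the exception in dendritic cells at -0.21 (-0.51 to 0.08). The summed platelet markers were also higher in APP/PS1 in 9 of these 10 classes, with 972 and 1265 CPM in classical monocytes and 1056 and 1577 CPM in gamma-delta T cells, and were lower in B cells, at 398 and 259 CPM. The exceptions were different classes: platelet markers were at 1862 and 2608 CPM in dendritic cells, and Itgb1 at 182 and 256 CPM in B cells. Of the other summed marker lists, that of NK cells was higher in APP/PS1 in 8 of the 10 classes and that of classical monocytes in 5. Those of nonclassical monocytes, neutrophils and erythroid cells were higher in 4, 2 and 1. The part of RNA from other cells in the Itgb1 ratios was not tested. Cd44 had an interval below 0 in 6 classes and above 0 in 1. The classes come from the same 2 libraries and are not replicates of the genotype.

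**Figure D5:**
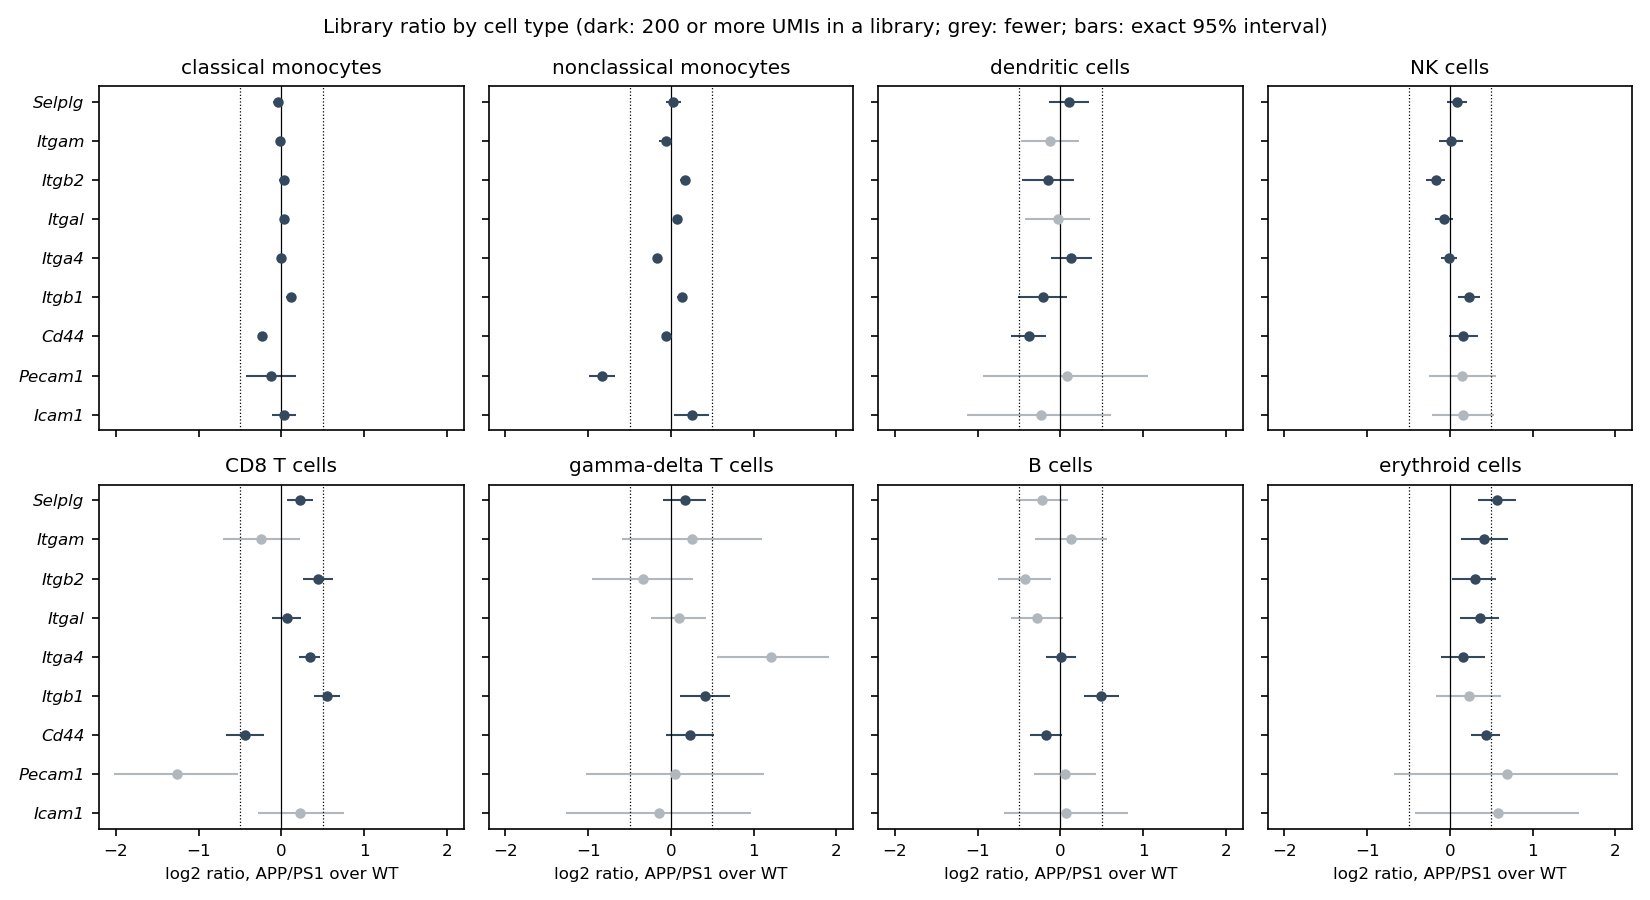
Log2 ratio of APP/PS1 over WT (x axis) for the 9 genes (y axis) in 8 other cell classes, 1 panel each. Dark points reached 200 UMIs in either library and grey points fewer, bars are exact 95% intervals for counting error, and dotted lines mark 0.5 log2. Among dark points, Pecam1 in nonclassical monocytes, Itgb1 in CD8 T cells and Selplg in erythroid cells lie past a dotted line.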

How the data were processed

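Blood cells of 2 libraries, 1 per genotype, were sequenced as 10x 3′ v3 libraries. The authors made the deposited UMI counts per gene and cell with Cell Ranger 5.0.0 and the mm10 reference. Counts were read as deposited. In each library, cells with fewer genes or UMIs than the 5th percentile, or more than the 95th, were left out, as were cells with over 10% mitochondrial UMIs. Clustering used Seurat 5.3.0 (15 principal components; resolution 0.5 for all cells; anchors between libraries and resolution 0.2, or 0.4 for the finer clusters, for neutrophils). Clusters were named from at least 3 markers; the naming rule was written after trial clusterings were seen. The members and lists were chosen with earlier results of these data known. The text names all members, list genes past 0.5 log2 between libraries in neutrophils, the highest and lowest ratio of each list group, and genes most like each member; list genes named in subtypes, and Tln1 and Fermt3, were chosen after their values were seen. Scrublet (scanpy 1.11.5) was run for doublets, with the WT threshold for both libraries, since the automatic one called 0 APP/PS1 cells, and called cells were kept in the main values. CPM of summed counts carry exact Poisson intervals, shares with Clopper-Pearson intervals and ratios with exact conditional intervals (SciPy 1.17.1). The ratio calculation was tested on simulated data. Kept cells held 64548783 WT and 60560111 APP/PS1 UMIs.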

Additional observations from a re-analysis of the deposited data

Results flagged for a closer look

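Opposite directions in different cell classes, with both counting intervals on their own side of 0, were found for Itgb2 and Cd44. Itgb2 had a log2 ratio, APP/PS1 over WT, of 0.45 (0.27 to 0.63) in CD8 T cells and of -0.43 (-0.76 to -0.11) in B cells, the latter from 178 and 147 UMIs. Cd44 was at 0.43 (0.26 to 0.60) in erythroid cells and at -0.44 (-0.67 to -0.21) in CD8 T cells. In CD8 T cells the summed NK cell markers were 4819 CPM (WT) and 7071 CPM (APP/PS1), and in B cells the summed neutrophil markers were 13268 and 6693 CPM, while Itgb2 stood at 589 and 523 CPM in NK cells, 449 and 473 CPM in neutrophils and 108 and 80.4 CPM in B cells. Neutrophil markers in erythroid cells were 34979 and 42374 CPM. As given above, the NK cell marker sum is not particular to NK cells. The part of RNA from other cells was not tested. With 1 library per genotype the differences between classes were not tested.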

How the results depend on the processing

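No paired analysis was possible because each genotype had 1 library and no test was made. The count of members highest in a neutrophil class was 3 under all 8 alternatives to its main value of 3; which genes these were was not compared. With library sizes without abundant genes, the median log2 ratio of the members in neutrophils was 0.030 (main value 0.075) and 4 pairs of member and other class were past 0.5 log2, against 7 when no UMI minimum is set. That count was 12 as a mean over cells, 21 at 1000 UMIs per cell and 3 with at least 200 UMIs. The Itgam share of alpha subunit UMIs in neutrophils of both libraries was 51.0% as a mean over cells and 51.1% at 1000 UMIs (main value 52.5%). The count of members past the limit in immature neutrophils was 5 at 1000 UMIs (main value 8). With cluster proportions held equal, an alternative added after the data were seen, 0 members were past the limit in neutrophils (main value 1). The causes were not tested. Of 81 single values for the libraries 12 moved, and of 69 for immature cells 7 moved; none reversed among values past the limit. The log2 ratio of Icam1 in neutrophils ranged from 0.32 to 0.88, that of Itga4 from -0.01 to 0.10. Depth limits Icam1 and Pecam1 most, and no value has a replicate.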
